A study of Mus musculus with 8 samples.

Results

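Mouse chromosome 11 was described as a single set of genomic windows. Its members were all scored positions of the chromosome in the deposited table of replication timing, averaged in windows of 50 kb that held at least 5 positions. This gave 2378 windows of 51425 in the genome, or 4.62%. The first scored position lay at 3.1 Mb and the last at 121.98 Mb, in mm10 coordinates, and 2377 of the windows held all 10 possible positions. The chromosome was chosen by measured values: its mean score was the highest of 20 chromosomes and its share of windows that differed between treated and control cells was the lowest. Those values, which come from the same profiles, are given as a description, with no test.

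The study measured replication timing in mouse embryonic stem cells (mESC) by Repli-seq, in which newly replicated DNA is labelled with BrdU, cells are sorted by DNA content into an early and a late fraction of S phase, and the labelled DNA of each fraction is sequenced. Cells received a 2 h BrdU pulse. The 8 libraries, 1 per S phase fraction, form 4 profiles: 2 of control cells and 2 of cells taken 2 days after treatment with dTAG, a small molecule that brings a tagged protein to a ubiquitin ligase and so to degradation, here YY1 by the sample titles. For culture and treatment the labels only cite an earlier publication, so the tagged line, the number of clones, the dose and the treatment of the control cells are not known here. YY1 itself was not measured. The labels do not say that the numbered replicates were separate cultures, so a p-value here reflects the spread among these profiles alone, which may be technical, and with 2 against 2 an exact permutation test cannot go below 0.333. In the dTAG replicate 1 libraries the letters for early and late in the titles are opposite to the fraction labels. The deposited dTAG replicate 1 profile nevertheless ran in the same direction as the other 3 (Pearson r of 0.993 with control replicate 1 over the windows of chromosome 11, a description over windows that are not independent).

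Eukaryotic chromosomes replicate in large domains whose origins fire together, early or late in S phase. Early domains are generally rich in genes and open chromatin, late domains are poor in genes and often lie at the nuclear lamina, and the slopes between them are called timing transition regions. YY1 is a zinc finger protein that binds promoters and enhancers and helps to hold them together in loops. Mouse chromosome 11 is a gene-rich chromosome that carries, among others, the Hoxb cluster, the alpha globin genes, the type I keratins, many CC chemokine genes, Trp53, Brca1 and Sox9.

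Promoter sequence was set beside timing first, because YY1 binds a defined motif. The RefSeq promoter table (assembly GRCm38.p6, which underlies mm10) held 2289 promoters of 1865 genes on the chromosome, each with 250 bases before and 50 after the start. The YY1 motif, spelled by the 11 capital letters in the sites printed here and searched on both strands, was in 24 of 2037 promoters in early windows (1.18%), in 0 of 184 in late windows and in 0 of 68 in mixed windows. Over all promoters of the genome the share was 0.635%, and outside chromosome 11 it was 0.764% in early and 0.114% in late windows. The shorter core AANATGGC, which lies inside the longer motif, was in 7.71% of early and 3.80% of late promoters of chromosome 11, against 6.08% of all promoters. Early promoters of the chromosome held a median of 12 CpG dinucleotides and late promoters 3.5. The 24 promoters hold 18 distinct sites, since 6 sites are shared by the promoters of neighbouring genes read in opposite directions. The following sites are shown as examples in early windows, with Cox10 in the lowest-scoring window that held a motif; capitals mark the motif, read on the gene's strand, which in Arf1 shows its reverse complement.
Psmb6 (chr11:70525377-70525406, plus strand): tggcagagtagcagaggAAGATGGCGGCcg
Maml1 (chr11:50292303-50292332, minus strand): aaacaattttAAGATGGCGGCggcagcggc
Arf1 (chr11:59228208-59228237, minus strand): tgccgtcagcGCCGCCATCTTgtgggagcg
Ncor1 (chr11:62457288-62457317, minus strand): gggttgaggcAAGATGGCGGCtaaggtggc
Mettl16 (chr11:74770853-74770882, plus strand): ttggctgcgcAAGATGGCGGCgcgcttgga
Bptf (chr11:107132103-107132132, minus strand): gggaagaaacAAGATGGCGGCtgcaggcga
Ndufaf8 (chr11:120098934-120098963, plus strand): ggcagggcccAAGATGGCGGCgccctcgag
Cox10 (chr11:64079432-64079461, minus strand): gcgggctagcAAGATGGCGGCgcccaggag
Psmb6 encodes a catalytic proteasome subunit, Maml1 a Notch coactivator, Arf1 a GTPase of the Golgi, Ncor1 a nuclear receptor corepressor, Mettl16 an RNA methyltransferase, Bptf a subunit of the NURF chromatin remodeller, Ndufaf8 an assembly factor of respiratory complex I and Cox10 an enzyme of heme A synthesis. A motif match is a description of letters and not a measured binding site. The 18 windows that held a site scored between 1.20 and 4.99 (median 4.17), and none of them was shifted by the rule given further on. Their median difference, dTAG minus control, was -0.07 (0.01 for replicate number 1 and -0.25 for number 2), against 0.02 over all early windows of the chromosome (0.05 and -0.02), and the single windows ranged from -0.69 to 0.30. The dTAG profile was above the control of the same replicate number in both numbers in 3 of the 18 windows and below it in both in 7. Over all 1593 early windows of the chromosome the shares were 30.6% above and 24.2% below, and over all windows of the genome 31.7% and 29.0%. The scored genes of the chromosome had a median difference of -0.02 (0.04 and -0.12), with 19.4% above and 27.8% below. Its windows in the earliest decile of the genome by score had a mean difference of -0.03 (0.03 and -0.09). No direction is read from the 18 windows.

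A score above 0 was read as early and below 0 as late, since the gene-rich windows score high; no source used here gives the formula or log base of the deposited score. A window was called early where all 4 profiles were above 0, late where all 4 were below 0, and mixed otherwise. On chromosome 11, 1593 windows were early, or 67.0%, against 46.3% of all windows in the genome. Late windows numbered 662, or 27.8%, against 46.2% of all windows, and 123 windows (5.17%) were mixed. The mean score was 1.74 in control replicate 1, 1.22 in control replicate 2, 1.75 in dTAG replicate 1 and 1.23 in dTAG replicate 2. By mean level the profiles thus grouped by replicate number and not by treatment, though the labels state no pairing. Over all windows of the genome the means were 0.20 and -0.20 in the controls and 0.20 and -0.20 after dTAG. In each of the 4 profiles chromosome 11 had the highest share of windows above 0 of all 20 chromosomes. That share was 70.7% and 68.0% in the controls and 71.2% and 68.6% after dTAG. Chromosome 19 followed with 60.0% early windows, then chromosome 9 with 55.7% and chromosome 17 with 53.3%. When all windows of the genome were ranked into deciles by score, 27.3% of the windows of chromosome 11 fell in the earliest decile and 53.8% in the 3 earliest deciles.

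**Figure D1:**
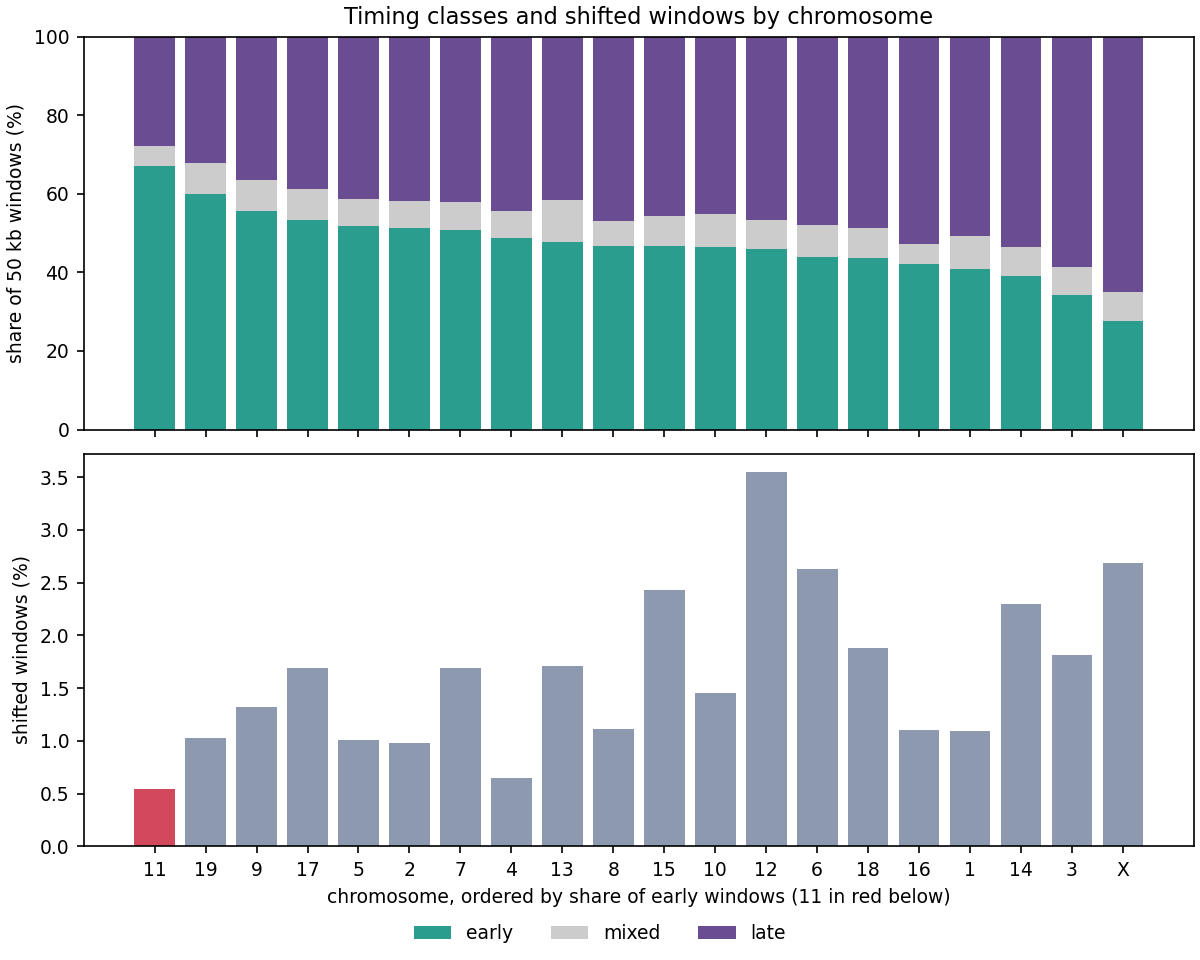
Share of 50 kb windows (%) that were early, mixed or late in all 4 profiles (upper panel, stacked to 100%) and share of windows shifted between dTAG and control (lower panel, %), for 20 chromosomes ordered by the early share. Chromosome 11 stands at the left with 67.0% early windows and the lowest shifted share, 0.547%.

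The label most stable held for some measures and not for others. The share of shifted windows (0.547%) and the 90th percentile of the absolute difference between the group means (0.483, against 0.572 over the genome) were the lowest of 20 chromosomes. The correlation of dTAG with control within replicate number 2 was the highest of the 20 (r = 0.989). The median absolute difference was 0.191, only the 6th lowest, against 0.20 over all windows, and the correlation within replicate number 1 (0.993) ranked 7th. The median absolute difference between the 2 control profiles was 0.540, against 0.536 over all windows of the genome. Between the 2 dTAG profiles it was 0.657, the highest of 20 chromosomes, against 0.554 over all windows. These values compare single profiles, whereas 0.191 compares means of 2 profiles, in which a shared difference between replicate numbers cancels. The sizes are thus not like measures. A shifted window needs both dTAG profiles past both controls, so a wide distance between the dTAG profiles makes the rule harder to meet. How far this lowers the shifted share of chromosome 11 was not tested. Over the whole chromosome the mean difference, dTAG minus control, was 0.01 (0.02 in replicate number 1 and 0.01 in number 2).

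Runs of windows of 1 class, bridged over at most 2 other windows and at least 500 kb long, gave 24 early and 19 late domains. The early domains covered 78.2 Mb and held the midpoints of 1466 protein-coding genes, while the late domains covered 30.95 Mb and held 66. The median early domain was 1.98 Mb long, the highest median of the 20 chromosomes, and the median late domain 1.30 Mb. The longest early domain, of 9.0 Mb, began at 113 Mb, held 205 genes and ran to the last scored window; among its longest genes were Rbfox3, a neuronal splicing factor, and Rptor, a subunit of mTOR complex 1. The next was 8.25 Mb long (99.9 to 108.15 Mb, 202 genes), with Prkca and Tanc2 among its longest genes. The third began at 48.5 Mb, was 7.35 Mb long and held 132 genes, among them Fstl4, Col23a1 and Adamts2. The earliest domain by mean score (74.15 to 80.85 Mb) held Nf1, the neurofibromin gene, and scored 4.25 and 3.82 in the controls and 4.32 and 3.72 after dTAG. The most gene-dense early domain lay at 67.75 to 71.25 Mb and held 37.4 genes per Mb, 131 in all, Trp53 among them. Along the chromosome, 7 of the 24 early domains had dTAG scores above control in both replicate numbers and 4 had them below in both. Of the 19 late domains 5 were above in both and 5 below in both. Over all windows of the genome the shares were 31.7% above and 29.0% below, and no direction is read from the domain counts.

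**Figure D2:**
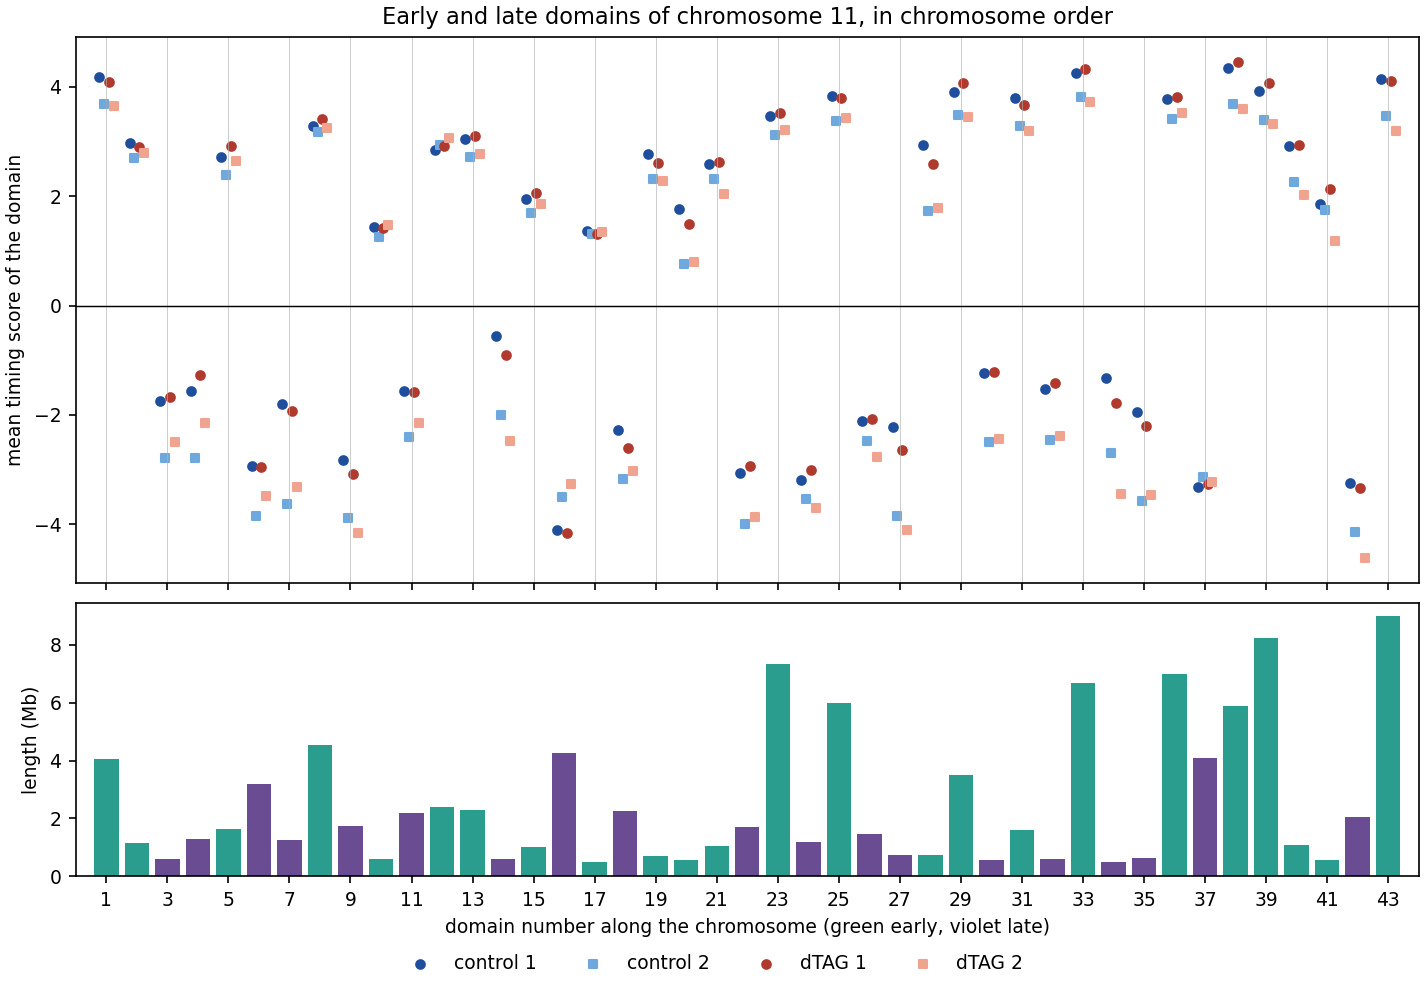
Mean timing score of each of the 43 domains of chromosome 11 in each of the 4 profiles (upper panel, score units, points are single profiles) and domain length in Mb (lower panel), in chromosome order. The control and dTAG values overlap in each domain, and the replicate numbers lie further apart in many late domains than the groups do.

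The late domains were poor in genes, as the reading of the score from gene density implies, and 6 of the 19 held the midpoint of a single one. The longest, of 4.25 Mb (36.2 to 40.45 Mb), held the midpoint of 1 gene, Tenm2, a teneurin that acts as a cell adhesion receptor between neurons, and scored -4.10 and -3.50 in the controls and -4.17 and -3.26 after dTAG. The domain of 4.10 Mb from 89.5 Mb held Car10, a carbonic anhydrase-related protein, and Ankfn1 among 10 genes. That of 3.2 Mb from 13.1 Mb held Vstm2a and Pom121l12 only. The domain at 24.15 to 25.9 Mb, next to Bcl11a, a transcription factor of blood and brain, held no protein-coding gene midpoint and contained the latest window of the chromosome (25 Mb, -4.55 and -5.40 in the controls and -4.52 and -5.78 after dTAG). The domain with the lowest mean (-3.83) lay at 110.7 to 112.75 Mb and held the potassium channel genes Kcnj16 and Kcnj2. In other late domains stood Meis1, a homeobox cofactor (18.2 to 19.45 Mb), Sgcd, the delta sarcoglycan gene, with Havcr1 and Timd4 (46.75 to 48.45 Mb), Gria1, an AMPA receptor subunit (56 to 57.2 Mb), and Asic2, an acid-sensing channel (80.95 to 81.45 Mb). A late domain of another kind, at 73.55 to 74.15 Mb, held 17 genes, among them olfactory receptors and the zinc finger genes Zfp616 and Zfp735, which is 28.3 genes per Mb.

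In 43 of 43 domains the control and dTAG profiles overlapped. The replicate numbers differ in level, so that groups can overlap even where dTAG differs from control the same way in both numbers. No such count is given for the domains of other chromosomes, and nothing is read from it. The early domains differed by -0.15 to 0.24 between the group means, all 24 by under 0.25 in size. The late domains differed by -0.60 to 0.47, and 13 of 19 by under 0.25. The lowest value belonged to the Asic2 domain, which scored -1.32 and -2.70 in the controls and -1.78 and -3.46 after dTAG (-0.45 and -0.76 within the replicate numbers). The highest belonged to the domain at 10.1 to 11.4 Mb with Zpbp, a sperm acrosome gene, and Vwc2, which scored -1.57 and -2.79 in the controls and -1.28 and -2.15 after dTAG (0.29 and 0.64). In both, the distance between replicates of a group exceeded the distance between the groups. That distance includes the difference in level between the replicate numbers, so it is no measure of noise in these differences. Within each domain dTAG differed from control the same way in both numbers.

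Borders were read as the point where a profile crossed 0 between neighbouring early and late domains, which gave 28 on chromosome 11. The median distance a border lay apart between dTAG and control was 23.4 kb in replicate number 1 and 22.8 kb in number 2. Between replicates of a group it was 23.9 kb in the controls and 32.1 kb after dTAG. At 2 borders both dTAG profiles lay past both controls by at least 25 kb, or 7.14%, against 5.69% of all borders in the genome. The border at 13.08 Mb, between the domain of Grb10 and Cobl and the late domain of Vstm2a, lay 33.4 kb and 59.0 kb further out after dTAG, so that the early side was longer. The border at 112.88 Mb, beside Sox9, lay 40.4 kb and 238.3 kb further in, so that the early side was shorter. With all profiles brought to 1 distribution, 1 of the 28 borders passed.

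Gene content differed between the timing classes. The direction of the score was read from gene density, so which class is richer in genes was set in advance. Only the sizes of these contrasts are described. Chromosome 11 held 1609 protein-coding genes, or 13.5 per scored Mb, the second highest density of the 20 chromosomes (8.41 over the genome). Early windows held 18.5 gene midpoints per Mb and late windows 2.66. Of the late windows 90.2% held no gene midpoint, against 43.8% of the early ones. Genes in late windows had a median length of 6.98 kb and those in early windows 14.5 kb, yet 21.6% of the late genes and 6.17% of the early ones were over 100 kb long. Windows without a gene midpoint had a median score of 0.48 and 50.1% of them were early, whereas windows with 1 midpoint had a median of 3.76. Over windows of 50 kb the Pearson correlation of gene number with score was 0.40 (Spearman 0.49, 2378 windows); over 200 kb it was 0.51 and over 1 Mb 0.64. These are descriptions across neighbouring windows of 1 chromosome. Non-coding genes were also mostly early, though lncRNA and snRNA genes less often than the protein-coding genes of the chromosome (92.1%). In early windows lay 607 of 739 lncRNA genes (82.1%), 45 of 47 tRNA genes and 48 of 61 snRNA genes (78.7%).

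Of the 1609 protein-coding genes, 1602 had a score at the midpoint (the mean of positions within 25 kb), and 1477 of these were above 0 in all 4 profiles (92.2%, against 77.4% of 21523 genes in the genome). A further 96 were below 0 in all 4 (5.99%, against 17.9%). The median gene scored 3.90, and 3.25 over the genome. Among the 10 longest genes the picture was different: 6 were below 0 in all 4 profiles, 3 were above 0 in all 4, and Cep112, a centrosomal protein, was mixed. Tenm2 (1230 kb) scored -4.21 and -5.19 in the controls and -3.76 and -5.46 after dTAG. Sgcd (1018 kb) scored -2.44 and -3.85 in the controls and -2.98 and -3.24 after dTAG. Both genes were below 0 in each profile, and the groups overlapped in both. Slit3 (587 kb), an axon guidance ligand, Bcas3 (473 kb) and Fstl4 (428 kb) were the long genes above 0 in all 4.

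The microRNA genes of the chromosome can be shown with sequences printed in full. Of 88 annotated microRNA genes in scored windows, 83 had a hairpin in the RefSeq sequence table and the other 5 were not used here. Of the 83 hairpins 78 lay in early windows, 4 in late windows and 1, Mir744, in a mixed one. The 4 late hairpins form the cluster of Mir216a, Mir216b, Mir216c and Mir217, known from pancreatic exocrine tissue. Mir10a and Mir196a-1, among the early ones, lie inside the Hoxb cluster and are known to target Hox messages. Mature sequences of the late cluster, whose windows lie in decile 5 of 10 from the late end of the timing scale, and of the Hoxb pair are shown for comparison; capitals mark the seed (bases 2 to 8).
miR-216a-5p (chr11:28757018-28757039, plus strand): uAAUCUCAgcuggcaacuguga
miR-216b-5p (chr11:28746204-28746225, plus strand): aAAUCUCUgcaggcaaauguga
miR-217-5p (chr11:28763761-28763783, plus strand): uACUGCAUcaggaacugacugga
miR-10a-5p (chr11:96317186-96317208, plus strand): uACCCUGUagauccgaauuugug
miR-196a-5p (chr11:96265187-96265208, plus strand): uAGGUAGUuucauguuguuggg
No pair of these 5 has the same seed. The window of Mir216a and Mir217 scored -0.02 and -1.32 in the controls and -0.58 and -1.41 after dTAG, and the window of Mir216b -0.43 and -1.75 in the controls and -0.88 and -1.86 after dTAG. The window of Mir10a scored 5.30 and 4.75 in the controls and 5.84 and 5.36 after dTAG, and that of Mir196a-1 5.20 and 5.04 in the controls and 5.71 and 4.99 after dTAG. Both late windows overlap between the groups, and so does that of Mir196a-1; in the window of Mir10a both dTAG values lie above both control values.

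Gene groups were described from 21 lists that together held 329 genes of the chromosome. Of these, 270 were above 0 in all 4 profiles and 46 below 0 in all 4. Of the 1602 scored genes of the chromosome 1477 were above (92.2%) and 96 below (5.99%). The listed genes were thus less often above 0 and more often below it than the scored genes of the chromosome. None of the 329 passed limma on the gene scores at an adjusted p of 0.05, and none had an unadjusted p under 0.05. The earliest group was the Hoxb cluster with its neighbours, transcription factors that pattern the body axis: 13 of 13 were above 0, with a median score of 5.20. Hoxb4 scored 5.30 and 4.89 in the controls and 5.87 and 5.31 after dTAG. Hoxb1 scored 5.01 and 3.95 in the controls and 5.20 and 5.13 after dTAG, so that both dTAG values lay above both controls, with a difference of 0.68 (0.19 and 1.18 within the replicate numbers). Hoxb13, at the far end of the cluster, scored 4.47 and 4.01 in the controls and 4.65 and 3.95 after dTAG, which overlap. The median difference of the list was 0.28 (0.49 and 0.13) against -0.02 over all scored genes of the chromosome, and 9 of the 13 genes were higher in both replicate numbers and 0 lower in both. Of all scored genes of the chromosome 19.4% were higher in both and 27.8% lower in both, and of those in the genome 25.3% and 30.6%. The 13 genes share 6 windows and are not independent, and the limma adjusted p of Hoxb1 was 0.999981.

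**Figure D3:**
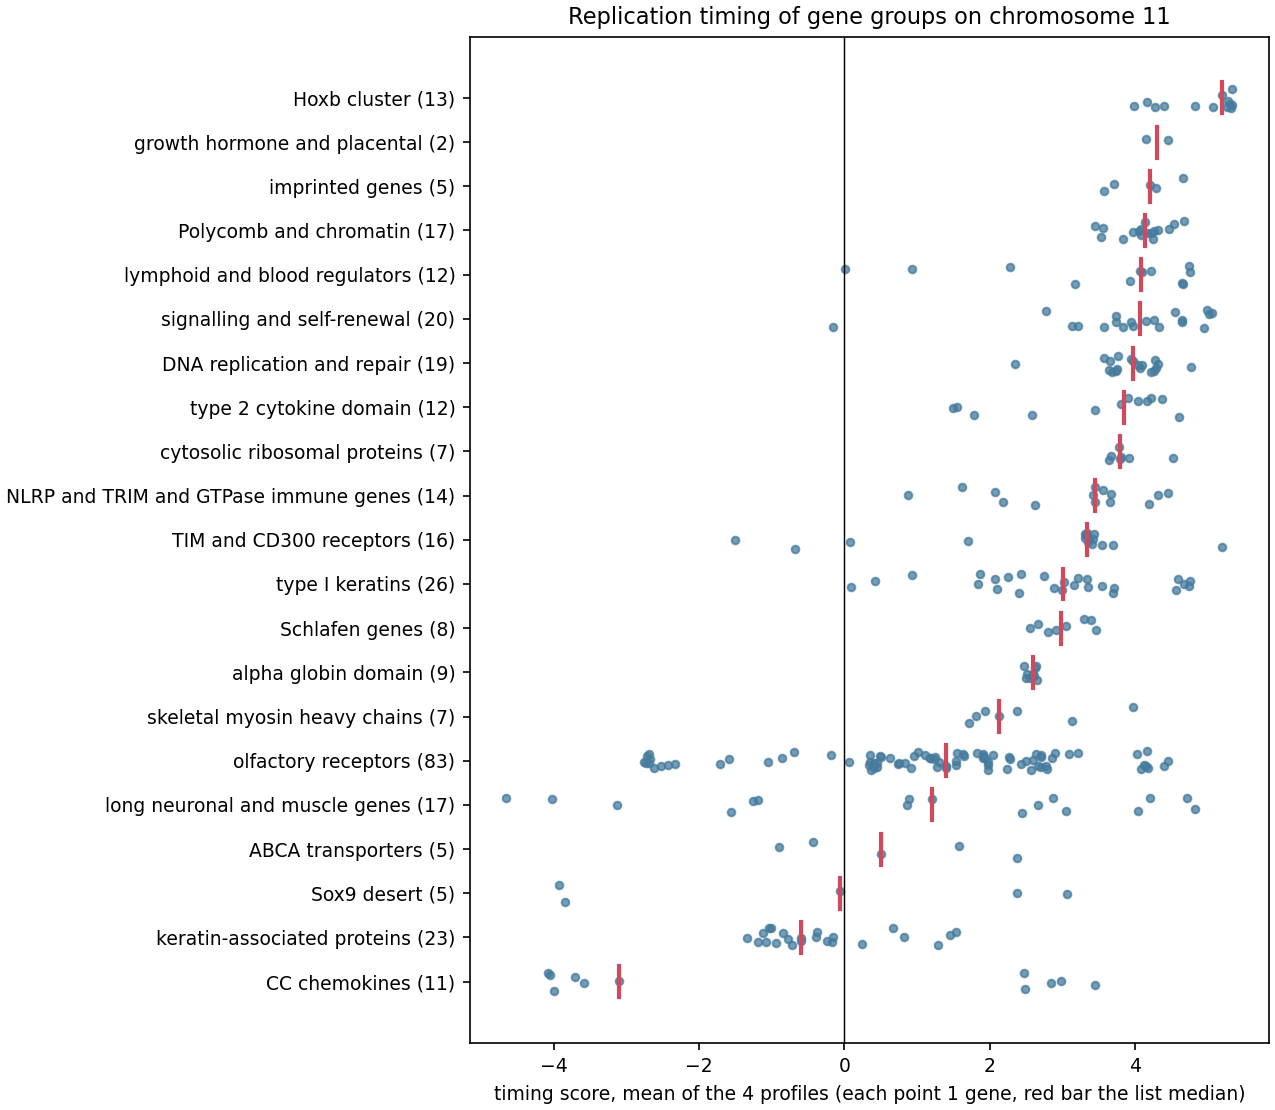
Timing score (mean of 4 profiles, score units) of each gene in the 21 lists on chromosome 11, with the number of genes in parentheses; each point is 1 gene and the red bar is the list median. The Hoxb list has the highest median, 5.20, and the CC chemokines fall into 2 separate sets on either side of 0.

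Groups with constant roles in dividing cells lay above 0, as did 92.2% of all scored genes of the chromosome, so that their counts are near the background. All 19 DNA replication and repair genes were above 0 in the 4 profiles (median 3.98). Among them, Trp53 scored 4.43 and 3.57 in the controls and 5.18 and 3.20 after dTAG. Brca1 scored 4.04 and 3.43 in the controls and 4.27 and 3.02 after dTAG. Pold2, a subunit of DNA polymerase delta, scored 5.17 and 4.91 in the controls and 4.58 and 4.41 after dTAG, the only one of these 3 in which both dTAG values lay below both controls (difference -0.55, limma adjusted p = 0.999981). The 17 Polycomb and chromatin genes (median 4.15), among them Suz12 and Ezh1, and the 7 cytosolic ribosomal protein genes (median 3.80) were above 0 in all profiles. The 5 genes at the imprinted loci, Grb10, Ddc and Cobl and the pair Commd1 and Zrsr1, were early too (median 4.21); the profiles do not separate the parental alleles. Of 20 signalling genes 19 were above 0 in all profiles, from Nog, a BMP antagonist, at 2.77 to Stat5b, a cytokine-activated transcription factor, at 5.06. The exception was Egfr, described with the shifted regions.

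Clusters of tissue-specific genes fell on both sides. The 9 genes of the alpha globin domain lay between 2.48 and 2.65; Hba-a1, an adult alpha globin, scored 2.89 and 2.32 in the controls and 2.97 and 2.27 after dTAG. Of 26 type I keratins, filament proteins of epithelia, 25 were above 0 in all profiles. The keratin-associated protein genes, which encode hair matrix proteins and lie between 2 sets of keratins, formed a local dip: 13 of 23 were below 0 in all profiles, with a median of -0.59 and a lowest value of -1.34 at Krtap4-6. The CC chemokine genes divided by position. Ccl2, Ccl7, Ccl11, Ccl12, Ccl8 and Ccl1, attractants of monocytes and eosinophils among them, lay between -4.08 and -3.11, while Ccl3, Ccl4, Ccl5, Ccl6 and Ccl9 lay between 2.47 and 3.45. Ccl2 scored -3.10 and -4.78 in the controls and -3.24 and -5.21 after dTAG. Ccl5 scored 3.48 and 3.40 in the controls and 3.47 and 3.44 after dTAG. The 8 Schlafen genes, which stand between the 2 chemokine sets, were early (2.56 to 3.47).

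Of 83 olfactory receptor genes 65 were above 0 in all profiles and 16 below. The late ones all belonged to the cluster at 73.35 to 74.37 Mb, whose 30 genes ran from -2.76 to 2.79, while the 19 genes at 49.11 to 49.56 Mb and the 21 at 58.45 to 58.84 Mb were above 0 in each profile. The 12 genes of the type 2 cytokine domain were early; Il4 and Il13, cytokines of T helper cells, scored near 4, whereas Il3 and Csf2, further along, were the lowest of the domain. Il3 scored 1.87 and 1.86 in the controls and 1.62 and 0.88 after dTAG, with both dTAG values below both controls (difference -0.61, limma adjusted p = 0.999981). In all, 11 of the 329 genes differed by over 0.5 in size between the group means, against 94 of the 1602 scored genes of the chromosome (5.87%) and 9.73% of those in the genome, so that the listed genes do not stand above the background. Of the 11, Hoxb1, Hoxb2, Hoxb3, Kat7 and Egfr were higher after dTAG, and Il3, Csf2, Pold2, Bcl11a, Mgat5b and Sox9 lower. The lowest was Sox9, a transcription factor of cartilage and testis, at 0.45 and 0.27 in the controls and -0.07 and -0.88 after dTAG (difference -0.83).

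A window was called shifted where the lower dTAG profile exceeded the higher control by 0.5 or more, or the reverse held for the later direction. On chromosome 11 this held for 13 windows, against 1.62% of all windows in the genome. Of the 13, 4 were earlier after dTAG (0.531% of all windows in the genome) and 9 later (1.09%). The rule used this contrast, so that nothing is read from these counts. With all profiles brought to 1 distribution 20 windows were shifted, 3 earlier and 17 later. Without 1 profile the rule has fewer values to meet, and the count was 240 without control replicate 1, 165 without control replicate 2, 326 without dTAG replicate 1 and 179 without dTAG replicate 2. All 13 lay in the middle of the timing scale, in deciles 3 to 6. These deciles held 25.7% of the windows of chromosome 11 and 40.7% of those elsewhere. Within them 2.13% of the windows of chromosome 11 were shifted, against 3.49% elsewhere. The shifted share of the other chromosomes, weighted by the timing of chromosome 11, was 1.15%. In decile 5 the shares were 0.629% and 5.06%, and in decile 6 they were 3.09% and 2.83%. Just inside the threshold, the window at 55.75 Mb had a gap of 0.503 between the nearest profiles of the groups, and just outside it, the windows at 16.7 Mb and 79.75 Mb had gaps of 0.489 and 0.475.

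**Figure D4:**
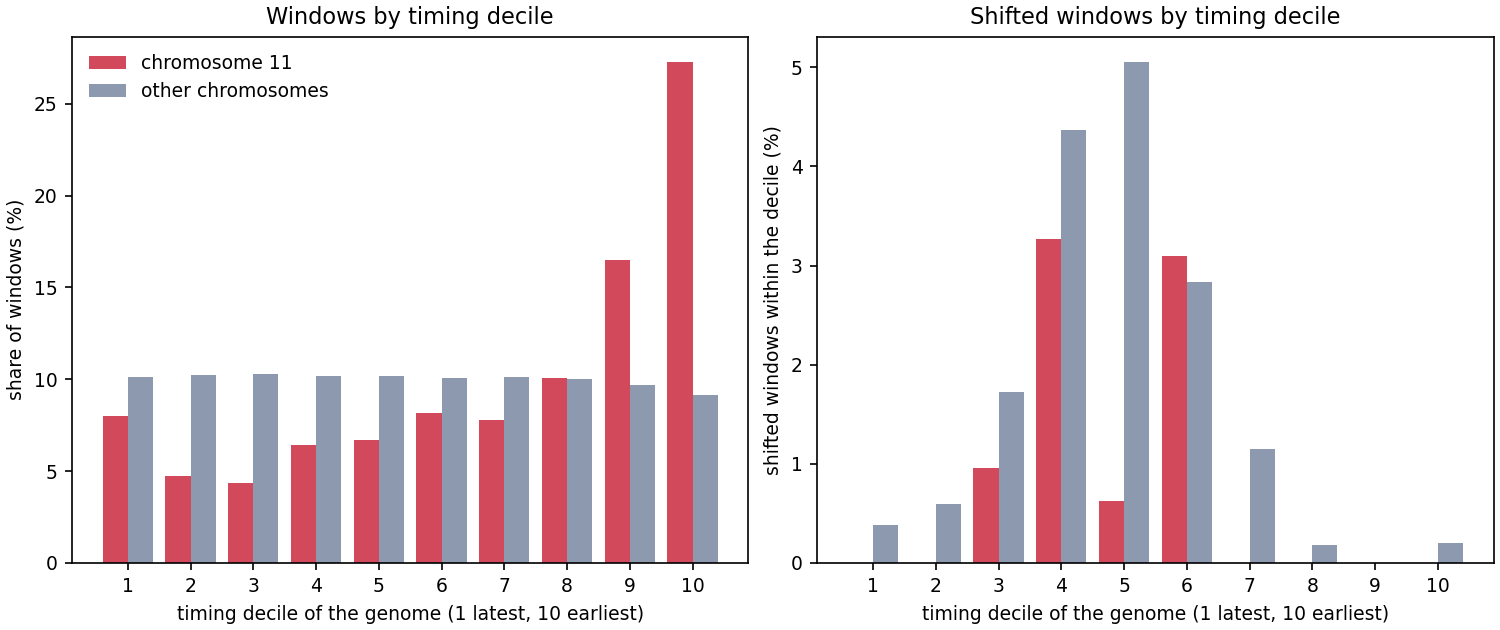
Share of windows (%) in each decile of the genome's timing scale for chromosome 11 and the other chromosomes (left), and share of windows shifted within each decile (right, %). Chromosome 11 holds 27.3% of its windows in the earliest decile, and its 13 shifted windows lie in deciles 3 to 6.

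The limma fit on all 51425 windows, with the group as its only term, called 0 windows of chromosome 11 at an adjusted p of 0.05, and 0% of the genome. At an unadjusted p under 0.05 it gave 5 windows of the 2378 on chromosome 11 and 500 in the genome. In stretches of 500 kb it called 0 of 238 on the chromosome (0 with an unadjusted p under 0.05) and 0% of 5145. Over genes it called 0 of 1602 (again 0 unadjusted) and 0% of 21523. The adjusted p in this fit was 0.99 or more for each shifted window, each named stretch and each listed gene. The replicate numbers differ in level, and the fit has no term for them, so that their difference enters its error. The 0 calls are therefore no measure of an absence of change. Fits with the replicate number as a block are given in the section on processing.

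The 13 windows formed 6 regions. The longest and largest lay at chr11:41650001-41900000, in a late domain. It scored -1.48 and -1.75 in the controls and -2.65 and -2.81 after dTAG, that is -1.61 ± 0.19 against -2.73 ± 0.11 (SD, n = 2 each). The difference was -1.12, with -1.17 and -1.06 within the replicate numbers. The groups did not overlap, which the rule for shifted windows requires. At its centre the controls stood at -1.36 and -1.57 and the dTAG profiles at -2.67 and -2.95; 300 kb to the left the replicate numbers stood further apart than the groups, at -3.15 and -4.90 in the controls and -3.41 and -4.49 after dTAG. No protein-coding gene overlaps the region, which holds the lncRNA gene A230004M16Rik.

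Another pair of regions flanked Sox9, which lies at the border between the late domain of Kcnj2 and the long early domain at the end of the chromosome. The region at chr11:112700001-112750000, 32.2 kb from Sox9, scored -0.32 and -0.33 in the controls and -0.85 and -1.61 after dTAG. The region at chr11:112900001-113050000, 112 kb from Sox9, scored 1.44 and 1.38 in the controls and 0.77 and -0.04 after dTAG, that is 1.41 ± 0.04 against 0.36 ± 0.57 (SD, n = 2 each). The difference was -0.90 in the first and -1.04 in the second. The groups were apart in both regions, as the rule requires, but the dTAG replicates stood far from each other. Without dTAG replicate 2 the differences were -0.52 and -0.64. The lncRNA genes BC006965 and 2610035D17Rik overlap the regions. Outward, at 500 kb to the right of the second region's centre, control and dTAG replicate 1 stood at 3.41 and 3.50, and control and dTAG replicate 2 at 3.28 and 2.62. Across the desert, Kcnj2 scored -2.30 and -5.28 in the controls and -3.07 and -5.07 after dTAG. Its dTAG score was lower than control in replicate number 1 and higher in number 2.

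The earlier regions were smaller. The region at chr11:16600001-16700000, 52.2 kb from Egfr, the epidermal growth factor receptor gene, scored 0.68 and 0.58 in the controls and 1.22 and 1.49 after dTAG (0.63 ± 0.07 against 1.35 ± 0.19, SD, n = 2 each), a difference of 0.72. Egfr itself scored -0.45 and -0.46 in the controls and -0.07 and 0.35 after dTAG, so that its groups did not overlap either (difference 0.60). The region at chr11:36250001-36300000, inside Tenm2 and on the slope into its late domain, scored -1.91 and -2.12 in the controls and -1.35 and -1.31 after dTAG, a difference of 0.69. The region at chr11:55750001-55800000, 142 kb from Glra1, a glycine receptor subunit gene, scored 0.97 and 0.71 in the controls and 1.471 and 1.497 after dTAG, a difference of 0.65. It lies at the end of an early domain and holds the uncharacterised gene LOC105244170. That both dTAG profiles stood above both controls in these 3 regions, in each replicate number by over 0.5, follows from the rule that chose them.

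**Figure D5:**
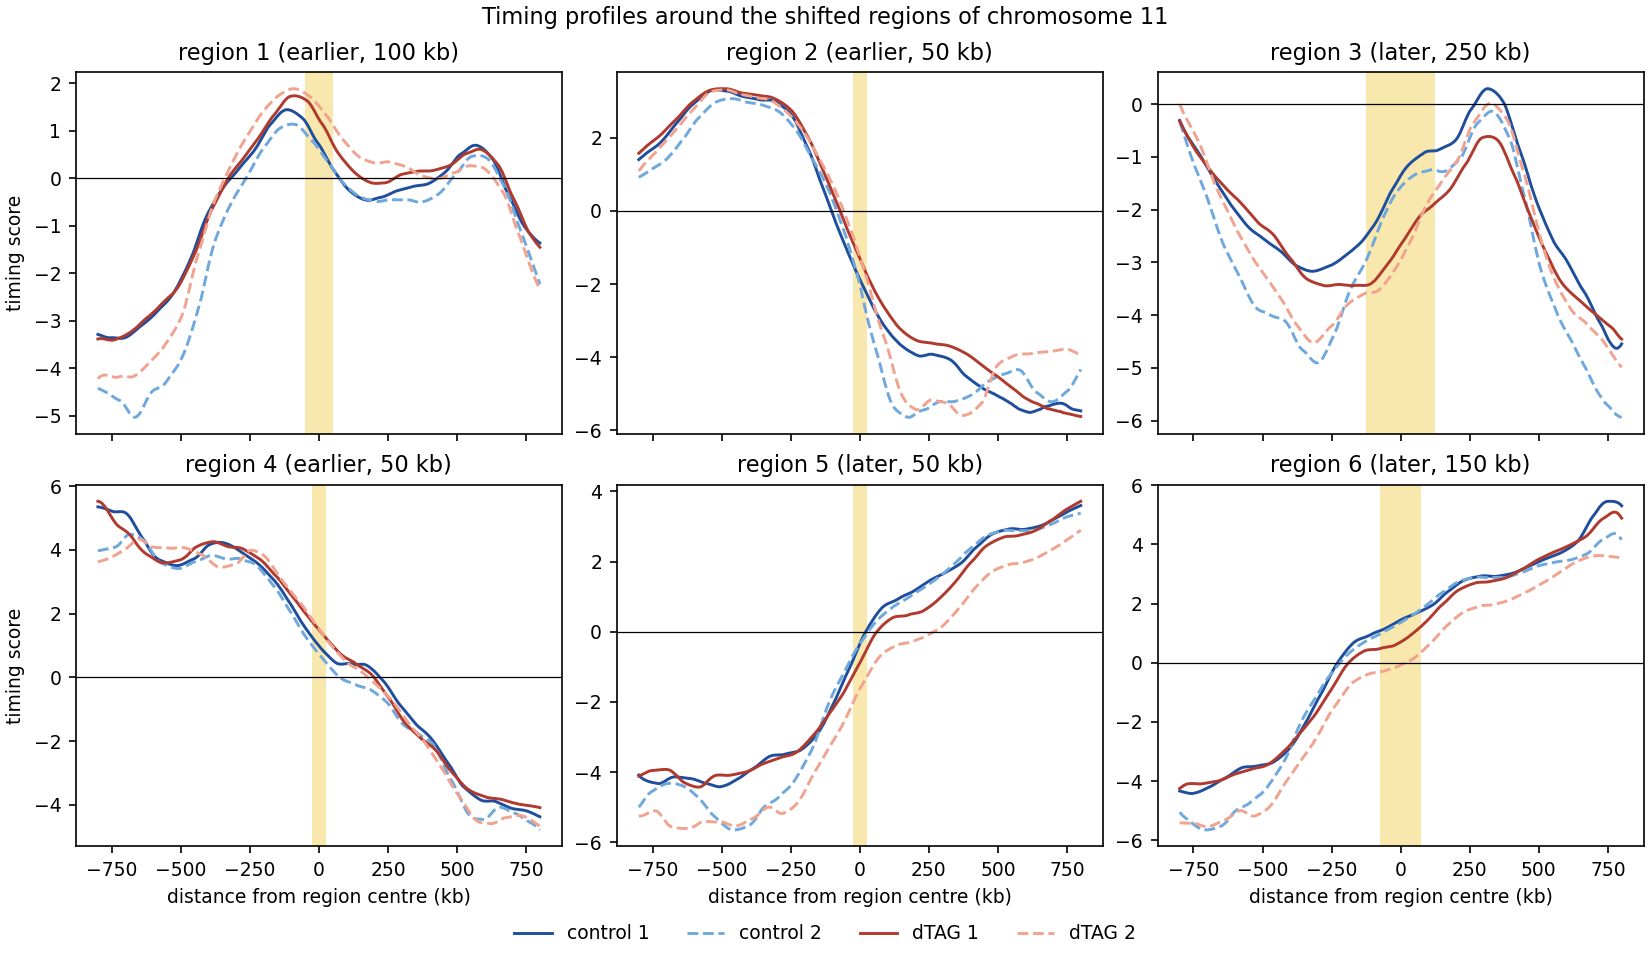
Timing score of the 4 profiles over 1600 kb around the 6 shifted regions of chromosome 11, numbered in chromosome order, against distance from the region's centre (kb); the yellow band marks the region. Region 3 shows both dTAG profiles below both controls across the band, which the rule for shifted windows requires. Regions 5 and 6, beside Sox9, show dTAG replicate 2 lower than dTAG replicate 1.

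Promoters in shifted windows numbered 3, all of non-coding or uncharacterised genes, and neither YY1 motif was found in any of them. Over all promoters of the genome the full motif was in 0.635% and the core in 6.08%, so that nothing is read from its absence in 3. These 3 promoters are shown because they lie in the shifted windows. That of Egfr, the protein-coding gene nearest to the earlier region at 16.6 Mb, is shown with them. The promoter of Sox9 is not shown here. Each run is the 250 bases before the start on the gene's strand, with CpG dinucleotides in capitals.
A230004M16Rik (chr11:41710094-41710343, plus strand): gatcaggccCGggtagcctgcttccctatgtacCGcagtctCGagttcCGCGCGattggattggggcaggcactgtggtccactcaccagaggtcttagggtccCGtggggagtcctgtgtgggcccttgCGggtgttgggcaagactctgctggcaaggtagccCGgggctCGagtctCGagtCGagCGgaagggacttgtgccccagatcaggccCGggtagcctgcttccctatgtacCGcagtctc
BC006965 (chr11:112711357-112711606, minus strand): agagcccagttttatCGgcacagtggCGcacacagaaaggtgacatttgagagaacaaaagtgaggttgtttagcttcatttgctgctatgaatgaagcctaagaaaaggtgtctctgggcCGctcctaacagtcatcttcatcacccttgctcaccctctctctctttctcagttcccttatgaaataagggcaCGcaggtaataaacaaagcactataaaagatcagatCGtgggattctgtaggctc
LOC105244170 (chr11:55781118-55781367, plus strand): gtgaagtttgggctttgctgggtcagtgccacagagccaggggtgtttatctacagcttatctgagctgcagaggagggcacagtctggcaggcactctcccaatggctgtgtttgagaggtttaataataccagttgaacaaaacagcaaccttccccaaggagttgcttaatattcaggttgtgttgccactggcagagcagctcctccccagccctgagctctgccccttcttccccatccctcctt
Egfr (chr11:16751953-16752202, plus strand): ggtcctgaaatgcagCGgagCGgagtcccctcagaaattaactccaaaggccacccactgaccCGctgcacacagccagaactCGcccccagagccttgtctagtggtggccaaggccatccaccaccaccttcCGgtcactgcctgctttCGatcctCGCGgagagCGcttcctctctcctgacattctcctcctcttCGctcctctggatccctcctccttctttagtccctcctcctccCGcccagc
The runs hold 15 CpG dinucleotides in A230004M16Rik, 5 in BC006965, 0 in LOC105244170 and 11 in Egfr. The window of A230004M16Rik was late (mean score -2.54), and its 15 CpG stand beside a median of 3.5 in whole late promoters of the chromosome.

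In stretches of 500 kb, all 4 pairwise differences (each dTAG profile minus each control) had 1 sign in 28 of 238 (11.8%), against 16.5% of all stretches in the genome. Of the 28, 19 were earlier and 9 later after dTAG. The genome share was not split by direction, so nothing is read from that split. Among the 5 lowest of the 28 were the stretches of Sox9, Slc39a11, Arhgap44 with Myocd, and Fnip1 with Acsl6 and Meikin. The Sox9 stretch (112.5 to 113 Mb) scored -0.49 and -0.55 in the controls and -0.87 and -1.76 after dTAG, a difference of -0.79 that was -0.35 without dTAG replicate 2 and -1.24 without dTAG replicate 1. The Slc39a11 stretch, named for a zinc transporter gene, scored 2.68 and 2.67 in the controls and 2.48 and 1.63 after dTAG; its difference of -0.62 was -0.20 without dTAG replicate 2 and -1.04 without dTAG replicate 1. The stretch of Arhgap44 and Myocd, the myocardin gene, differed by -0.45. The stretch from 54 Mb, which holds Il3 and Csf2 too, differed by -0.37, by -0.10 without dTAG replicate 2 and by -0.64 without dTAG replicate 1. The 5 highest were those of Egfr with Plek and Sec61g, of Glra1, of Tenm2, of Acaca with Aatf and Synrg, and of Sertad2 with Aftph and Lgalsl. The Egfr stretch (16.5 to 17 Mb) scored 0.24 and 0.12 in the controls and 0.64 and 0.93 after dTAG, a difference of 0.60. The Acaca stretch, which holds the acetyl-CoA carboxylase gene, scored 3.86 and 3.66 in the controls and 4.02 and 4.10 after dTAG, a difference of 0.30. The Glra1 stretch differed by 0.40, and by 0.23 without control replicate 2. The Tenm2 stretch differed by 0.33. The Sertad2 stretch differed by 0.30, and by 0.19 without dTAG replicate 2.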

How the data were processed

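Replication timing was measured by Repli-seq in mouse embryonic stem cells. Per the submitters' processing notes, Bowtie2, SAMtools and bedtools and the build mm10 were used; no source used here gives tool versions, the score formula or read depths, so no counting error is given. The deposited table holds 1 timing score per position, every 5 kb, for each of 4 profiles that join 8 libraries; the name of the table points to loess smoothing and quantile steps by the authors, with no details. The profiles of replicate 1 and replicate 2 have mirrored distributions (51.8% and 48.2% of windows above 0 in the controls), so differences within each replicate number are given beside group differences. All other columns were positions, and 0 further sample columns were left out.

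Scores were averaged in windows of 50 kb (at least 5 positions) and stretches of 500 kb (at least 50), and at gene midpoints, with Python 3.11.15 and pandas 2.3.3. Groups were tested over the whole genome with limma 3.58.1 (R 4.3.3), 2-sided, with Benjamini-Hochberg adjustment over all features, after a test on simulated data. Genes and promoters came from RefSeq tables of GRCm38.p6. Alternatives were a replicate block, a trended and robust variance with it, 1 common distribution, leaving out each profile, other windows and other thresholds.

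Named genes were the members of fixed lists, up to 5 long genes per late domain and per long early domain, genes at shifted regions, at the 5 highest and 5 lowest one-signed stretches, at the extreme windows, and the 10 longest. The genes of the printed motif sites and the single genes picked from lists were chosen after their values were seen. Members and lists were chosen with earlier results of these data known. Some genes that the rule names are not reported here.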

Additional observations from a re-analysis of the deposited data

How the results depend on the processing

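The counts of limma calls on chromosome 11 (0 windows, 0 stretches, 0 genes) were also 0 on 1 common distribution, and without each profile in turn (0 to 0). Profiles with the same replicate number deviated together (correlation of replicate deviations 0.71 over the windows of the chromosome), but 2 pairs do not settle a pairing and the labels state none. With the replicate block, limma called 0 windows, 6 stretches (330 of 5145 in the genome) and 0 genes. Of the stretches named in the report, those of Sox9 (adjusted p = 0.0169) and Egfr (adjusted p = 0.0423) were among the 6. So were those at 10 to 10.5 Mb and 10.5 to 11 Mb, which overlap the late domain of Zpbp and Vwc2. Each differed by 0.75 (adjusted p = 0.0155 and 0.0106). The stretch at 41.5 to 42 Mb, which holds the longest shifted region, differed by -0.75 (adjusted p = 0.0114). That at 65.5 to 66 Mb differed by -0.76 (adjusted p = 0.0101). With the block and a trended and robust variance it called 23 of 2378 windows (1462 of 51425 in the genome). Of the 13 shifted windows 10 were among them. That fit also called 11 of 238 stretches (441 of 5145 in the genome) and 8 of 1602 genes (755 of 21523). An alternative chosen after seeing the data was the block on 1 distribution. There limma called 0 stretches (62 of 5145 in the genome) and 0 windows.

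The 13 shifted windows (4 earlier, 9 later) became 20 on 1 distribution (3 earlier, 17 later), of which 8 were shared, 2 in windows of 200 kb, 63 at a threshold of 0.25, 2 at 1 and 373 with no minimum. Without 1 profile the rule has fewer values to pass: the count was 165 to 326 (240 without control replicate 1, 165 without control replicate 2, 326 without dTAG replicate 1, 179 without dTAG replicate 2), and the median absolute difference, 0.191 with all, was 0.311 to 0.412. The early share, 67.0%, was 69.6% by mean score and 64.0% above 0.5 in all profiles. Late domains, 19, were 12 at a minimum of 1 Mb. The correlation of gene number with score, 0.40, was 0.51 in windows of 200 kb and 0.64 in windows of 1 Mb. Other values of these results stayed within 1.5 times or within the spread between profiles. The cause of these changes was not tested. The number of profiles, 2 in each group, and the unknown depth limit the precision.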
